A study of Mus musculus with 12 samples.

Results

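Microglia are the resident macrophages of the brain, and 9 genes that mark them in their resting, or homeostatic, state are described here in the medial prefrontal cortex (mPFC) of mice with a nerve injury. The genes are Cx3cr1, P2ry12, Tmem119, Csf1r, Aif1, Trem2, Tyrobp, Siglech and Olfml3. They were taken by name from an expression table of 34745 genes, and all 9 were found and passed the filter on low counts. The samples were bulk tissue from wild-type (WT) male mice. The injury was chronic constriction (CCI) of the sciatic nerve, an operation in which the nerve is loosely tied and which is used as a model of lasting neuropathic pain. The left mPFC, on the side that the labels call ipsilateral to the operation, gave 4 libraries at day 28, and the right, contralateral mPFC gave 4 more at the same day. The third group was 4 mPFC libraries of naive mice, which had no treatment and were taken at day 28 of habituation. Their hemisphere is not stated. There was no group with a sham operation, so surgery and nerve constriction cannot be told apart, and neither age nor strain is given. Left and right CCI libraries carry the numbers 1 to 4, which the labels do not tie to single mice.

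Homeostatic microglia are maintained by signals from neurons and other cells. Csf1r is the receptor for the growth factors Csf1 and Il34, on which microglial survival depends. Cx3cr1 is the receptor for fractalkine (Cx3cl1), a chemokine made mainly by neurons, and P2ry12 is a receptor for ADP that guides the movement of microglial processes toward damaged cells. Trem2 is a lipid-sensing receptor that signals through the adaptor Tyrobp. Siglech encodes a sialic acid-binding lectin that also signals through this adaptor. Aif1 encodes Iba1, the calcium-binding protein most used to stain microglia. Tmem119 encodes a membrane protein and Olfml3 a secreted protein, both used as markers that separate microglia from other macrophages. In the spinal cord, microglia respond to peripheral nerve injury with division and with induction of receptors and cytokines. In disease states of the brain, P2ry12, Tmem119 and Cx3cr1 are known to decline while Trem2, Tyrobp and Apoe increase.

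The bases upstream of the transcription start of 4 members are shown because these members differ in how they varied across the libraries, as described further down. The Pearson correlation with the mean of the other 8 members over 12 libraries was 0.87 for Cx3cr1 and 0.79 for Trem2, and 0.21 for both P2ry12 and Aif1. The Spearman rank correlation was 0.69 for Cx3cr1, 0.71 for Trem2, 0.32 for P2ry12 and 0.17 for Aif1. Each stretch is the 250 bases before the start in the RefSeq annotation of GRCm38.p6, read 5′ to 3′ on the strand of the gene. Capitals mark matches to GAGGAA, the core of the sites bound by the ETS factor PU.1 (Spi1) that specifies the microglial lineage, or to its reverse complement TTCCTC. The stretches lie at chr9:120068297-120068546, minus strand, for Cx3cr1, at chr17:48346151-48346400, plus strand, for Trem2, at chr3:59262986-59263235, minus strand, for P2ry12 and at chr17:35176053-35176302, minus strand, for Aif1.
Cx3cr1: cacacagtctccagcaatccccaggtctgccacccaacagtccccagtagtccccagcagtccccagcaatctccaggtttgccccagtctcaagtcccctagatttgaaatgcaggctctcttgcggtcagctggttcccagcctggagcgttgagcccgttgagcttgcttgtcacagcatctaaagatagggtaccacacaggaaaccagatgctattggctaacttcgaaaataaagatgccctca
Trem2: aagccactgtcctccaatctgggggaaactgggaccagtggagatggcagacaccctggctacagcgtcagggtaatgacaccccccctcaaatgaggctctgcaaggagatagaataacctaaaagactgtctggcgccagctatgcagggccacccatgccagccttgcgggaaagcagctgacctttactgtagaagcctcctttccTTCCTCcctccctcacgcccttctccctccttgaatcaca
P2ry12: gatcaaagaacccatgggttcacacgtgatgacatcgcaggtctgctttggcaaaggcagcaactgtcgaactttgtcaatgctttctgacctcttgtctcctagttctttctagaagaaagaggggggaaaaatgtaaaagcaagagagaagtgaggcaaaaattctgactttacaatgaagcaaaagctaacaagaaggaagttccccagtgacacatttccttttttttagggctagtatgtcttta
Aif1: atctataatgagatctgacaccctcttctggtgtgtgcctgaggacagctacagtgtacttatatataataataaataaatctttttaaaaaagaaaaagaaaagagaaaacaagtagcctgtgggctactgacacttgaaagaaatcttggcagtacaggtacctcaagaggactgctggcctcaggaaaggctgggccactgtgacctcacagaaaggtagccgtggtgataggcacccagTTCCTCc
The motif stood in Trem2 at 40 bases and in Aif1 at 7 bases before the start, both times on the reverse strand, and was not present in the stretches of Cx3cr1 and P2ry12. Promoter windows were examined for only 6 of the 9 members, and whether the other members hold a match was not examined. In windows that also include the 50 bases after the start, 3 of these 6 held a match on either strand. Genome-wide, 31.3% of 27025 gene symbols held a match in any of their windows of the same length, and 28.3% of 32851 single windows did. A match describes letters and not a bound site.

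In the deposited coordinates of GRCm38 (mm10), Cx3cr1 spans chr9:119901616-120068283 on the minus strand, P2ry12 chr3:59216272-59262871 (minus), Tmem119 chr5:113793729-113800516 (minus), Aif1 chr17:35170991-35176068 (minus) and Olfml3 chr3:103722222-103738001 (minus). On the plus strand, Trem2 spans chr17:48346401-48354147, Tyrobp chr7:30413788-30417577 and Siglech chr7:55768178-55778925, and Csf1r lies on chromosome 18. In GENCODE M21, Csf1r shares 873 exonic bases with Hmgxb3 on the opposite strand, and P2ry12 lies within Med12l, also on the opposite strand, with which it shares 9 exonic bases. Cx3cr1 shares 78 exonic bases with Gm33858 on the opposite strand, which is not among the genes with counts. The span of Cx3cr1 also overlaps other genes with which it shares no exonic bases. Whether the counting used strand is not given in the sources used here, so reads in the shared bases of Csf1r and Hmgxb3 may have been counted for either gene. Hmgxb3 varied little, between 56.4 and 65.1 CPM (counts scaled to the size of the library) over the 12 libraries.

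The members covered a wide range of abundance. Between genes, levels can be compared only per length, and the order per kilobase of the longest coding transcript, as a mean over the 12 libraries, was Csf1r (24.8 CPM per kilobase), Tyrobp (14.5), P2ry12 (14.1), Cx3cr1 (13.7), Trem2 (12.1), Tmem119 (9.84), Aif1 (4.78), Olfml3 (3.53) and Siglech (2.61). The ranges over the 12 libraries overlapped between each gene and the next in this order, except between Csf1r and Tyrobp and between Tmem119 and Aif1. The deposited FPKM values gave Csf1r (19.9 FPKM) and Tyrobp (15.3) the same first ranks but placed Cx3cr1 (8.92) and Tmem119 (8.55) above P2ry12 (3.73) and Trem2 (2.15). The gene length implied by count and FPKM exceeded the longest annotated transcript for 8 of the 9 members. For Trem2 it was 6119 bases where the longest coding transcript has 1088, and for P2ry12 it was 8851 bases against 2344, so the order between these genes depends on the length used.

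**Figure D1:**
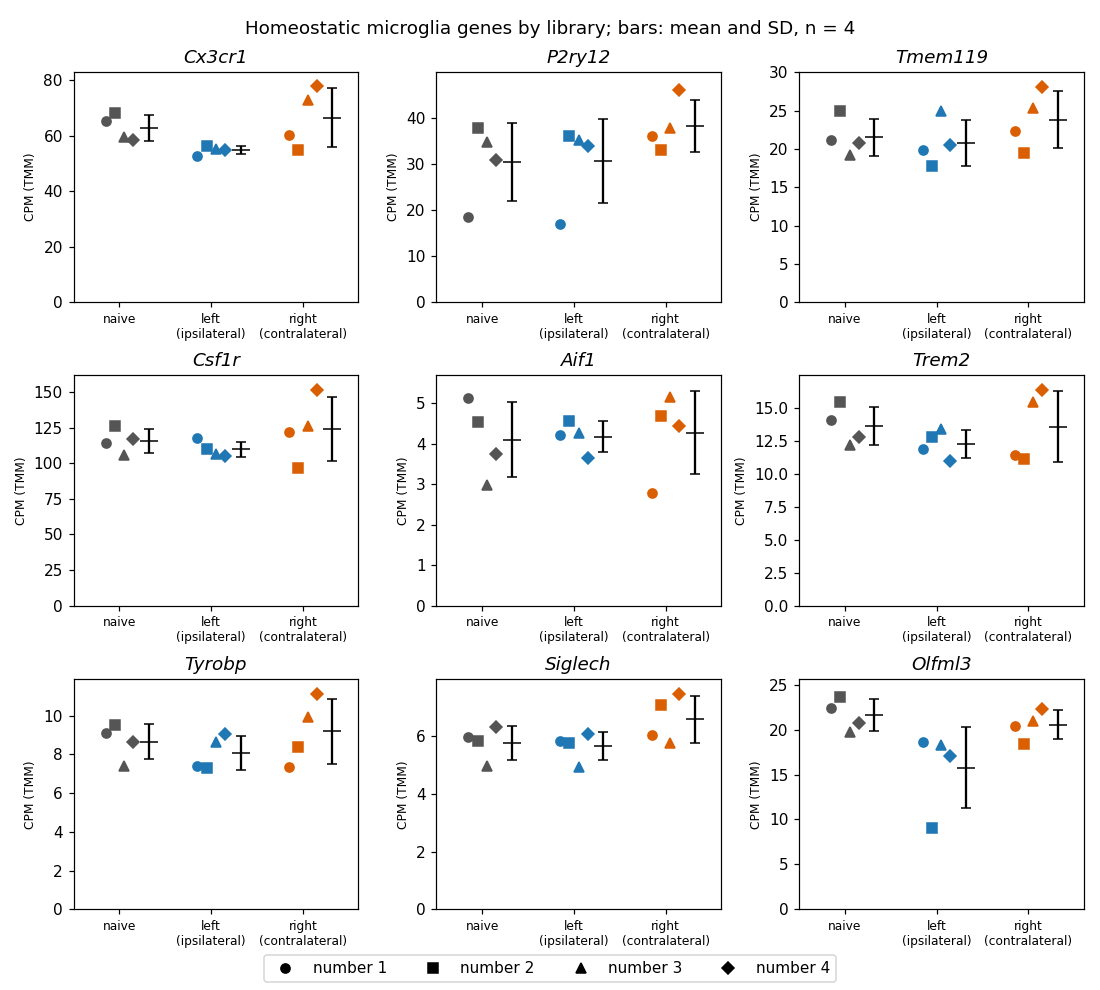
Level of each of the 9 genes in each library, in CPM with TMM factors (y axis, from 0), by group (x axis). Symbols give the number on the library and black bars the mean and SD of 4 libraries. Right (contralateral) library 4 is the highest of the 12 for 7 of the genes, and P2ry12 is low in the left (ipsilateral) and naive libraries numbered 1.

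Markers of excitatory cortical neurons were abundant in every library, summing to 5232 to 6621 CPM. The 9 members, as markers of microglia, were present in every library, summing to 254 to 365 CPM. Right library 1 stood apart by high striatal neuron markers, and libraries of number 2 by the low meningeal markers of the right one, so results are also given without them.

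None of the 9 members passed an adjusted p of 0.05 in any comparison between groups, and neither did any other gene: 0 of 15808 tested genes (0%) were called in each of the 3 comparisons of single libraries and 0 of 16179 (0%) when left and right counts of a CCI number were summed (edgeR quasi-likelihood test with Benjamini-Hochberg adjustment over all tested genes). DESeq2 and limma voom also called 0 of the 9 in each comparison. In tissue, fewer microglia and less RNA per microglial cell cannot be told apart. Nothing in the labels says which libraries come from separate mice, and p-values measure the spread between these libraries.

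Growth and fractalkine receptors are described first. Csf1r was measured at 117, 110, 107 and 105 CPM in the left CCI libraries 1 to 4, at 122, 97.0, 126 and 151 CPM in the right and at 114, 126, 105 and 117 CPM in the naive libraries. The left and naive values lay close together and the right values spread widely, with both the lowest and the highest of the 12. The fitted difference of right against left CCI mPFC was 0.18 on the log2 scale (SE 0.10, adjusted p = 0.592), and those against naive were 0.10 for the right and -0.07 for the left. Cx3cr1 stood at 52.8, 56.4, 55.2 and 54.7 CPM in the left CCI libraries, at 60.4, 54.8, 72.9 and 77.8 CPM in the right and at 65.5, 68.2, 59.6 and 58.4 CPM in the naive libraries. All 4 left values were below all 4 naive values, whereas the right values overlapped both groups. Right against left, Cx3cr1 differed by 0.28 (SE 0.10), with an unadjusted p of 0.0113 and an adjusted p of 0.592. Left against naive, the difference was -0.20 (SE 0.10, unadjusted p = 0.0565, adjusted p = 0.972), and right against naive it was 0.08.

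P2ry12 was at 17.0, 36.0, 35.2 and 33.9 CPM in the left CCI libraries, at 35.9, 32.9, 37.8 and 46.1 CPM in the right and at 18.3, 37.6, 34.6 and 30.9 CPM in the naive libraries. The low values in left library 1 and naive library 1 stood apart from the other 10, which ran from 30.9 to 46.1 CPM, and the groups overlapped. The fitted difference of right against left was 0.32 (SE 0.26) and of right against naive 0.33 (SE 0.26), both with the widest errors among the members. Without the 3 libraries numbered 1, these became 0.15 (SE 0.12) and 0.18 (SE 0.12). Left against naive, P2ry12 differed by 0.01 (SE 0.26).

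The receptor Trem2 and its adaptor had similar profiles. Trem2 was at 11.9, 12.8, 13.4 and 11.0 CPM in the left CCI libraries, at 11.4, 11.1, 15.4 and 16.3 CPM in the right and at 14.0, 15.4, 12.1 and 12.8 CPM in the naive libraries. Tyrobp was at 7.43, 7.27, 8.63 and 9.04 CPM in the left, at 7.35, 8.38, 9.91 and 11.1 CPM in the right and at 9.09, 9.54, 7.41 and 8.62 CPM in the naive libraries. For both genes right libraries 3 and 4 were the highest of the CCI libraries, and all groups overlapped. Right against left, the differences were 0.15 (SE 0.13) for Trem2 and 0.19 (SE 0.14) for Tyrobp. Siglech, the lectin of the same adaptor, was at 5.83, 5.77, 4.95 and 6.08 CPM in the left, at 6.03, 7.06, 5.77 and 7.47 CPM in the right and at 5.97, 5.83, 4.96 and 6.33 CPM in the naive libraries. Its differences were 0.22 (SE 0.12, unadjusted p = 0.0977) for right against left and 0.19 (SE 0.12) for right against naive.

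Of the remaining markers, Olfml3 was at 18.6, 9.07, 18.2 and 17.1 CPM in the left CCI libraries, at 20.5, 18.4, 21.002 and 22.3 CPM in the right and at 22.4, 23.7, 19.7 and 20.7 CPM in the naive libraries. All left values were below all naive values, and left library 2, at 9.07 CPM, lay far below the other 11 libraries. Left against naive, Olfml3 differed by -0.46 (SE 0.18, unadjusted p = 0.0227, adjusted p = 0.972), and right against left by 0.39 (SE 0.18, unadjusted p = 0.0485, adjusted p = 0.592). Without left library 2 these differences were -0.27 (SE 0.09, unadjusted p = 0.0106, adjusted p = 0.864) and 0.20 (SE 0.09, unadjusted p = 0.0439, adjusted p = 0.570). Tmem119 averaged 20.8 ± 3.0 CPM (SD, n = 4) in the left, 23.8 ± 3.7 in the right and 21.5 ± 2.4 in the naive libraries, and differed by 0.20 (SE 0.13) right against left. Aif1, which encodes Iba1, averaged 4.17 ± 0.39 CPM in the left, 4.27 ± 1.02 in the right and 4.10 ± 0.93 in the naive libraries. Its differences were 0.03 for right against left, 0.05 for right against naive and 0.02 for left against naive, each with SE 0.20, and its lowest value, 2.80 CPM, was in right library 1.

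Read as a set, the values of right against left CCI mPFC were positive for 9 of 9 members, with a median of 0.20, while 51.1% of all tested genes were positive, with a median of 0.00. Unadjusted p-values under 0.05 were reached by 2 of the 9, Cx3cr1 and Olfml3, both higher on the right, where 4.58% of all tested genes reached them in that direction. Several lists of other cell types held as many or more such genes, as given further down. Cx3cr1 and Olfml3 also reached an unadjusted p under 0.05 right against left with DESeq2, limma voom and other normalization factors. Cx3cr1 alone did with no filter on low counts, with only the 2 groups compared, or without any single naive library. No member did without both libraries of number 3 or of number 4. Left against naive, 7 of 9 were negative (median -0.07), with 1 unadjusted p under 0.05, Olfml3, where 2.96% of all genes reached it in that direction. The libraries of Cx3cr1 and Olfml3 did not overlap between left and naive, both lower on the left, which held for 2.77% of all tested genes. Right against naive, 7 of 9 were positive (median 0.09), with no unadjusted p under 0.05 against 3.78% of all genes. These comparisons share libraries pairwise, so their values are not independent. When left and right counts were summed, 5 members were positive and 4 negative against naive, with a median of 0.02 and no unadjusted p under 0.05 against 4.2% of all genes. Olfml3 came nearest in that fit, at -0.26 (SE 0.13, edgeR unadjusted p = 0.0656, adjusted p = 1.00). The 95% intervals of the summed fit ran from -0.22 to 0.11 for Cx3cr1, from -0.14 to 0.18 for Csf1r and from -0.38 to 0.74 for P2ry12, so a doubling lay outside the interval for each of these 3.

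**Figure D2:**
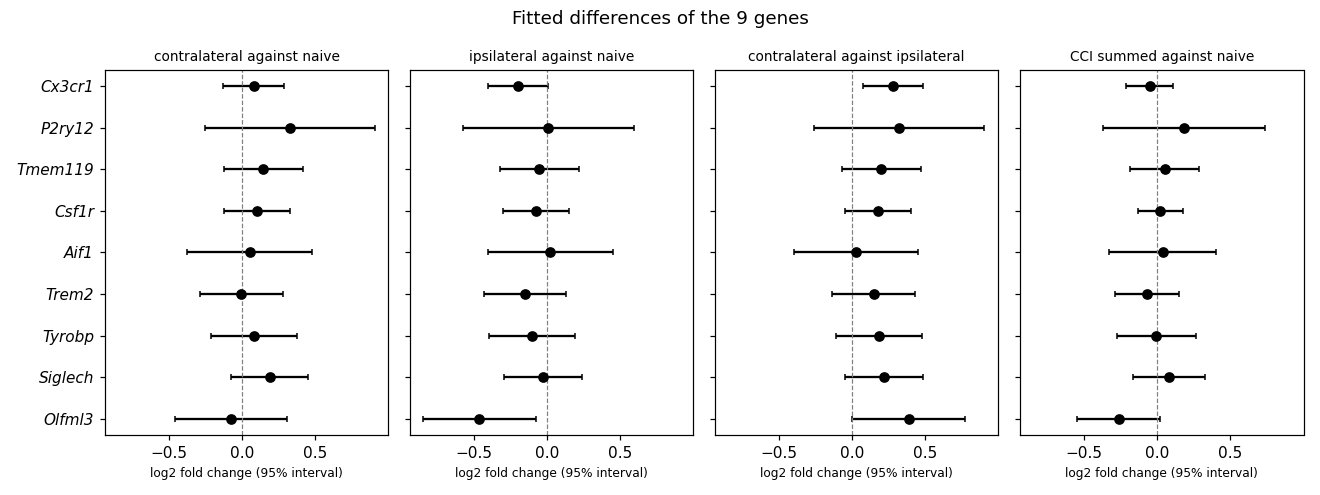
Fitted log2 fold change of each of the 9 genes (points) with its 95% interval (bars) in 4 comparisons; the dashed line marks no difference. All 9 points of contralateral against ipsilateral are above 0, and P2ry12 has the widest intervals in each panel.

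Within the numbers on the CCI libraries, right minus left was positive for 6, 5, 9 and 9 of the 9 members in numbers 1 to 4, with medians of 0.06, 0.04, 0.20 and 0.44 on the log2 CPM scale. Tmem119 (mean 0.19 ± 0.18, SD over 4 numbers), Siglech (0.21 ± 0.11) and Olfml3 (0.43 ± 0.40) were higher on the right in 4 of 4 numbers. For these 3 the exact two-sided permutation p was 0.125, the smallest that 4 differences allow. Cx3cr1 (0.26 ± 0.24) and Tyrobp (0.17 ± 0.13) were higher on the right in 3 of 4, with differences of -0.04 for Cx3cr1 in number 2 and -0.02 for Tyrobp in number 1 as the exceptions (exact permutation p = 0.25 each). Csf1r (0.16 ± 0.30) and P2ry12 (0.37 ± 0.52) were negative in number 2 alone, by -0.18 and -0.13 (exact permutation p = 0.375 each). Trem2 was positive in numbers 3 and 4 and negative in 1 and 2. Aif1 averaged 0.00, with -0.58 in number 1 against 0.04, 0.27 and 0.28 in the others. Number 4 gave values of 0.28 to 0.57 for all 9 members, exceeded only by number 1 for P2ry12 and by number 2 for Olfml3. Without both libraries of number 4, 7 of 9 members were positive in the fit of right against left, with a median of 0.14, and Cx3cr1 differed by 0.20 (SE 0.10).

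**Figure D3:**
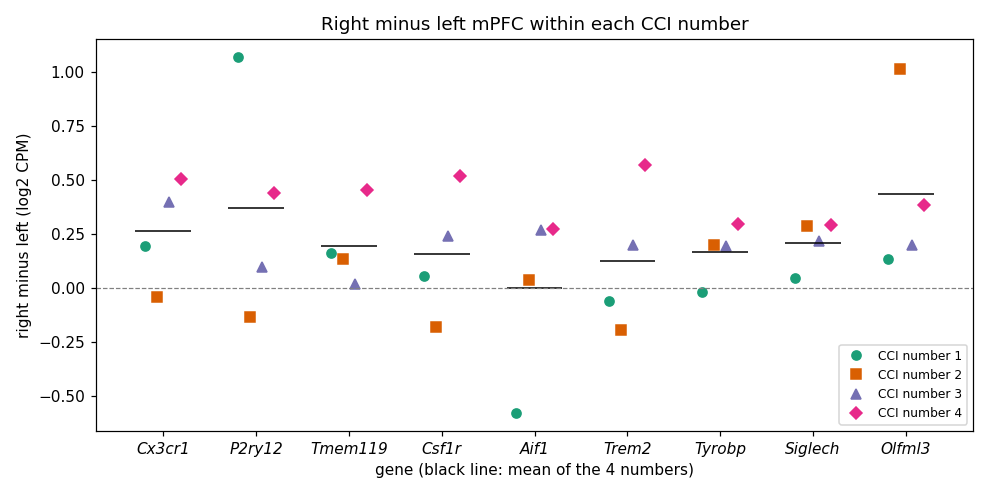
Right minus left difference in log2 CPM (y axis) of the 9 genes (x axis) for each CCI number (symbols), with the mean of the 4 numbers as a black line. All 9 genes are above 0 in numbers 3 and 4, and the points of P2ry12 in number 1 and Olfml3 in number 2, both above 1.0, lie apart from the rest.

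Counts of called genes depended on number 2. Without both of its libraries, 286 of 15919 tested genes passed the adjusted threshold for right against left (166 higher, 120 lower on the right). None of the 9 members was among them, which says little about the members at so small a share. The member nearest to the threshold was then Cx3cr1, at 0.38 (SE 0.09, adjusted p = 0.0597). Without right library 2 alone, 159 of 15971 tested genes passed, and Cx3cr1 again came nearest among members at 0.36 (SE 0.08, adjusted p = 0.0616).

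The large steps of P2ry12 and Olfml3 were seen in 1 or 2 libraries and not in the other members. P2ry12 amounted to 7.15% of the summed CPM of the other 8 members in left library 1 and to 7.12% in naive library 1, against 12.5% to 16.1% in the other 10 libraries. Its genomic neighbour P2ry13, another ADP receptor of microglia, was at 11.8 and 13.2 CPM in those libraries and at 10.6 to 20.4 CPM over all 12. Med12l, the gene that contains P2ry12, was at 42.8 and 34.9 CPM there and at 40.5 to 50.5 CPM in the other 10 libraries. Olfml3 amounted to 16.1% of Cx3cr1 in left library 2 and to 28.7% to 35.4% in the other 11 libraries. Neither low value was shared by the right library of the same number, where P2ry12 was at 14.2% of the other members and Olfml3 at 33.6% of Cx3cr1.

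**Figure D4:**
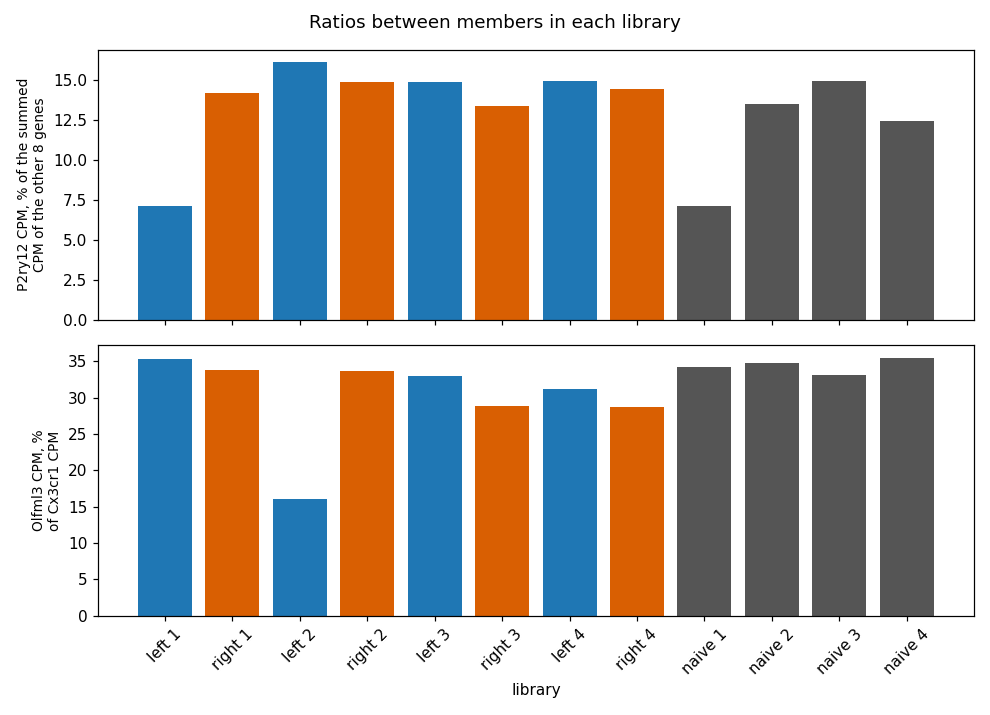
P2ry12 as a percentage of the summed CPM of the other 8 genes (upper panel) and Olfml3 as a percentage of Cx3cr1 (lower panel), 1 bar per library from 0. P2ry12 is at about 7.1% in left 1 and naive 1 and at 12.5% or more elsewhere, and Olfml3 is at 16.1% in left 2 alone.

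Across the 12 libraries, 33 of the 36 pairs of members had a positive correlation of log2 CPM (median Pearson r 0.40, range -0.18 to 0.87). The libraries share depth, dissection and group, so this is a description. Correlation with the mean of the other 8 members was 0.89 for Tyrobp, 0.87 for Cx3cr1, 0.85 for Tmem119, 0.79 for Trem2 and 0.71 for Csf1r, and without the 2 libraries farthest from the median it was 0.74, 0.66, 0.69, 0.56 and 0.28. For Siglech and Olfml3 it was 0.35, and for Aif1 and P2ry12 0.21, and without those 2 libraries it was -0.03 for Siglech, 0.24 for Olfml3, 0.11 for Aif1 and -0.22 for P2ry12. The 2 libraries left out were chosen for each gene from the mean of the other members, so low values of the gene itself could remain. Spearman rank correlation was 0.22 for Siglech, 0.52 for Olfml3, 0.17 for Aif1 and 0.32 for P2ry12. For Tyrobp, Cx3cr1, Tmem119, Trem2 and Csf1r it ran from 0.50 to 0.84. Of 14549 other genes with a mean of at least 1 CPM, those most like the mean profile of the 9 were Atxn7l2 (r = 0.96), F3 (0.94), Mpeg1 (0.94), Kansl1l (0.94), Sema3g (0.94), Pnn (0.94), mt-Nd2 (0.93), Gna13 (0.93), Gm28439 (0.93) and Gm10222 (0.93), over 12 libraries. Mpeg1, which encodes the pore-forming protein perforin-2 of macrophages, was the only one of these 10 known chiefly from myeloid cells. Among listed microglia-enriched genes, the complement gene C1qa ranked 17 (0.92) and P2ry13 176 (0.80). The endothelial marker Pecam1 stood between them at rank 24 (0.91).

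Other genes of the microglial programme are given from lists. Of 15 further microglia-enriched genes, 0 passed the adjusted threshold. Right against left, 15 of 15 were positive (median 0.18), and the smallest unadjusted p-values were those of C1qc (0.31, SE 0.09, unadjusted p = 0.00413) and the transcription factor gene Sall1 (0.22, SE 0.07, unadjusted p = 0.00859). C1qc was at 26.5, 28.1, 26.9 and 26.7 CPM in the left CCI libraries and at 30.4, 30.4, 32.4 and 40.7 CPM in the right, without overlap, which 1.61% of all tested genes showed in this direction. Left against naive, 13 of the 15 were negative (median -0.08), among them C1qb (-0.24, SE 0.10, unadjusted p = 0.0348) and the Fc receptor-like gene Fcrls (-0.22, SE 0.11). With right and left summed, 7 were positive and 8 negative against naive (median -0.00).

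Of 10 transcription factors and TGF-beta pathway genes that set up microglial identity, 9 were positive right against left (median 0.19). Apart from Sall1, the smallest unadjusted p-values were those of Runx1 (1.16, SE 0.31, unadjusted p = 0.00202), a factor of early myeloid development, and of Smad3 (0.23, SE 0.11, unadjusted p = 0.0465), a mediator of TGF-beta signals, and neither passed adjustment. Runx1 was scarce, at 0.46 to 1.02 CPM in the left and at 1.16 to 1.70 CPM in the right libraries. Spi1, which encodes PU.1, differed by 0.05 (SE 0.18) right against left.

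Ligands of the members were measured in the same libraries. Csf1, at 17.7 to 23.3 CPM, differed by 0.14 (SE 0.08) right against left and by 0.03 (SE 0.06) when summed counts were set against naive. Il34, the neuronal ligand of Csf1r, differed by 0.09 (SE 0.14) and -0.09 (SE 0.12) in the same comparisons. Apoe, a lipoprotein ligand of Trem2 made mostly by astrocytes, differed by 0.30 (SE 0.19) and 0.15 (SE 0.14). Cx3cl1, the ligand of Cx3cr1, was at 895, 829, 876 and 429 CPM in the left CCI libraries, at 785, 353, 378 and 765 CPM in the right and at 833, 853, 903 and 1000 CPM in the naive libraries. The 3 CCI libraries at 353 to 429 CPM lay well apart from the other 9, at 765 CPM and above. Against naive, Cx3cl1 differed by -0.65 (SE 0.31, unadjusted p = 0.0629) in the right and by -0.25 (SE 0.31) in the left mPFC, and by -0.42 (SE 0.11, unadjusted p = 0.0058, adjusted p = 1.00) in the summed counts. Of 12 ligands and signalling partners, 10 were positive right against left (median 0.09), with 1 unadjusted p under 0.05, that of the inhibitory G protein subunit gene Gnai2 (0.19, SE 0.07, unadjusted p = 0.0152).

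Genes of reactive and disease-associated microglia gave no called difference. Of 23 listed, 18 passed the filter, while Cst7, Itgax, Clec7a, Lgals3 and Ch25h, which are used to define that state, were below it. Right against left, 12 of the 18 were positive (median 0.10). The smallest unadjusted p-values were those of the lysozyme gene Lyz2 (0.48, SE 0.18, unadjusted p = 0.018), the tetraspanin gene Cd63 (0.23, SE 0.09, unadjusted p = 0.0205) and the protease gene Ctsb (-0.18, SE 0.07, unadjusted p = 0.0217), which was lower on the right. Of 14 genes of the spinal microglial response to nerve injury, 12 passed the filter, Il1b and Tnf being below it, and 10 of the 12 were positive right against left (median 0.15), with the interferon factor gene Irf5 at 0.45 (SE 0.19, unadjusted p = 0.0312). The ATP receptor genes P2rx4 and P2rx7 had values of -0.09 (SE 0.12) and 0.05 (SE 0.11). No gene of these lists passed in the other comparisons either.

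Markers of other cell types were followed beside the members, because tissue pieces can differ in what they contain. Border-associated macrophages of the meninges and vessels express Csf1r, Cx3cr1 and Tyrobp too. Of 9 of their markers 5 passed the filter, and right against left all 5 were positive with a median of 0.65, including Mrc1 (0.74, SE 0.28) and Cd163 (0.95, SE 0.40). Their 9 markers summed to 21.8 to 28.8 CPM in the left, 21.9 to 40.2 in the right and 23.8 to 33.3 in the naive libraries. Mrc1 alone was at 1.54 to 3.59 CPM in the left and at 2.31 to 5.59 CPM in the right libraries. Meningeal and fibroblast markers were positive for 10 of 10 (median 0.60), summing to 34.4 to 56.9 CPM in the left, 28.5 to 82.3 in the right and 51.0 to 76.8 in the naive libraries. Astrocyte markers were positive for 9 of 9 (median 0.15) and endothelial markers for 7 of 7 (median 0.26). Oligodendrocyte precursor markers were positive for 6 of 6 (median 0.22), oligodendrocyte markers for 8 of 8 (median 0.13) and mural cell markers for 5 of 6 (median 0.21). Of excitatory cortical neuron markers 2 of 8 were positive (median -0.11), and of inhibitory neuron markers 1 of 6 (median -0.10). Unadjusted edgeR p-values under 0.05, higher on the right, were reached by 4 of 9 astrocyte, 4 of 6 precursor and 3 of 6 mural markers. The same held for 2 of 5 border macrophage and 2 of 7 endothelial markers, against 4.58% of all tested genes. No oligodendrocyte or meningeal marker reached them, and 3 of 6 inhibitory neuron markers did on the lower side (3.78% of all genes). Left against naive, 5 of 5 border macrophage markers (median -0.34), 10 of 10 meningeal markers (median -0.61) and 7 of 9 astrocyte markers (median -0.11) were negative. The part of all these markers in the values of the 9 members was not tested.

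By number, right minus left averaged over the 9 members was 0.11, 0.13, 0.21 and 0.42 in numbers 1 to 4. The means in numbers 1 and 2 rest largely on P2ry12 (1.07 in number 1) and Olfml3 (1.02 in number 2). The medians over the members in these numbers were 0.06 and 0.04. The mean over meningeal markers was 1.06, -1.33, 0.93 and 1.37, and that over border macrophage markers 0.81, -0.39, 0.65 and 1.13. Astrocyte markers gave -0.11, -0.34, 0.59 and 0.96. The other 15 microglia-enriched genes gave 0.06, -0.10, 0.21 and 0.53. In number 2, where the means of the meningeal, border macrophage and astrocyte lists were negative, 5 members were higher and 4 lower on the right. Of the other 15 microglia-enriched genes, whose mean was also negative there, 3 were higher on the right. Number 4 gave the highest value in each of these lists and in the members.

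**Figure D5:**
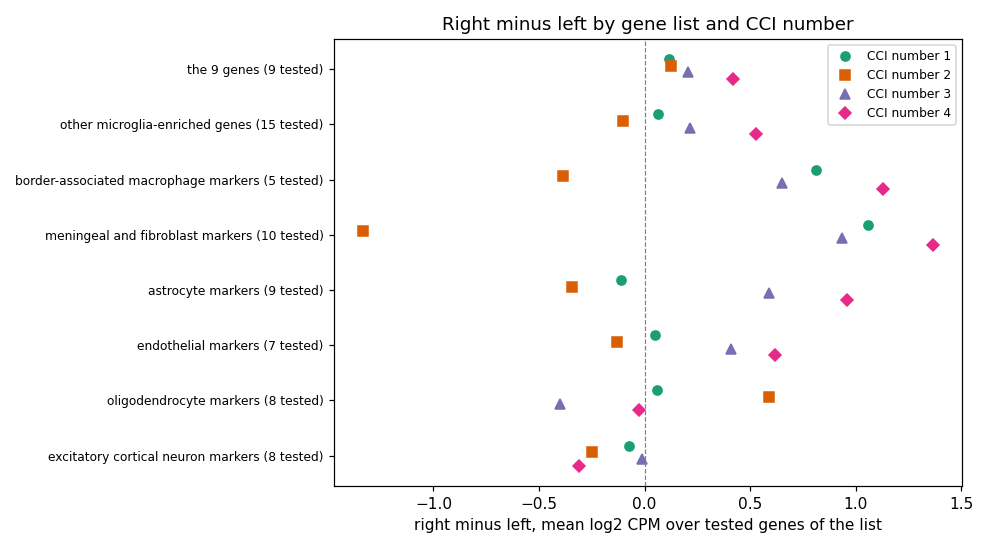
Right minus left difference averaged over the tested genes of each list (x axis, log2 CPM) for the 4 CCI numbers (symbols), with the 9 genes in the top row. The mean over the 9 genes is between 0.11 and 0.42, and rests largely on P2ry12 in number 1 and Olfml3 in number 2. Meningeal markers run from -1.33 in number 2 to 1.37 in number 4.

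Blood leukocyte markers were close to 0. The 7 listed (Ccr2, Ly6c2, Plac8, S100a8, S100a9, Cd3e and Cd79a) summed to 0.17 to 1.51 CPM per library, none passed the filter, and Ly6c2 had no count in any library. Among proliferation genes, Top2a (1.68, SE 0.71, unadjusted p = 0.0358) and Mki67 (0.92, SE 0.63) were positive and Birc5 (-0.31, SE 0.30) negative right against left, and Cdk1 was below the filter. Their summed level was 12.9 CPM in right library 1 and at most 4.53 CPM in the left and naive libraries. Right minus left averaged over the 3 tested genes was 1.61, -0.14, -0.29 and 0.32 in numbers 1 to 4, so the positive values rest largely on right library 1. Right library 1 also had striatal neuron markers 1.54 above their mean on the log2 scale, against -0.29 to 0.02 in the other 11 libraries, and its members were not high, with Aif1 at its lowest there. Without both libraries of number 1, 9 of 9 members were positive right against left, with a median of 0.22.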

How the data were processed

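RNA was sequenced from mPFC tissue of 4 left CCI, 4 right CCI and 4 naive libraries, grouped by the labels. The authors deposited 1 table with raw counts per gene and, beside them, FPKM per gene and library. The submitters' processing notes name HISAT2 2.0.4, GRCm38 and mm10, and the kit selected mRNA, per the labels' protocols. How reads were counted is not given in the sources used here. FPKM was used only to describe levels. Library totals were 16.1 to 20.6 M counts, and members had counts enough to pass the filter (filterByExpr).

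The test on counts was that of edgeR 4.0.16 under R 4.3.3 (TMM factors, robust quasi-likelihood fit of 3 groups, two-sided, 15808 genes), and again after left and right counts of a number were summed (16179 genes). A gene was called at a Benjamini-Hochberg adjusted p under 0.05. Levels are CPM with TMM factors, log2 CPM has a prior count of 2, and SE is the fold change over the root of F. Alternatives used DESeq2 1.42.0, limma 3.58.1 (voom), other factors, no filter, the replicate number as a block, only 2 groups, and libraries left out. Tested on simulated data with 200 genes changed 2-fold, the fits recovered 97.5% for right against left (15685 genes) and 98.5% for the summed counts (16065 genes). Of the genes called there, 4.41% and 1.99% were false. The simulation gave every gene the same dispersion of 0.03 and changed only genes of higher counts. It does not measure the power to find differences as small as those of the members. The members and the 17 other gene lists were chosen with earlier results of these data known. All members are named. From each other list at most 3 genes of smallest unadjusted p in a comparison are named. One of the genes named by this rule is left out. The 4 ligands Csf1, Il34, Cx3cl1 and Apoe are always named, as are the 10 genes most like the members' mean profile. Further genes (Spi1, P2rx4, P2rx7, Pecam1, P2ry13, Med12l, Hmgxb3, Birc5) are given as context and were chosen after values were seen, as were the 4 promoters shown. Sequences are from RefSeq promoters of GRCm38.p6.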

Additional observations from a re-analysis of the deposited data

Results flagged for a closer look

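A value far from the others of its set was found in 2 of 36 sets of 4 values examined, which were each member's levels in the 3 groups and its right minus left over the 4 numbers, where chance flags about 1 in 20. P2ry12 in left (ipsilateral) library 1 was at 17.0 CPM, and its gap to the next value was 0.89 of the range of the group. P2ry12 was similarly low in naive library 1, at 18.3 CPM, but that group's spread was too wide for the same call. Olfml3 in left library 2 was at 9.07 CPM, with a gap of 0.84 of the range, while Cx3cr1 in that library was the highest of its group at 56.4 CPM.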

How the results depend on the processing

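None of the 9 members was called under any alternative in any comparison. Of 801 values of the members under alternatives, 742 kept their direction, 59 turned it, and none crossed the threshold. Of those that turned, 38 came from leaving out 1 library, or 1 number or naive library of the summed counts, and 21 from the other settings, which include leaving out both libraries of a number.

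Of these 21, the 10 in right against naive were -0.000891 for Cx3cr1, -0.00288 for Csf1r and -0.0174 for Tyrobp without number 4, -0.0486 for Aif1 without number 3, and for Trem2 0.00336 with upper quartile factors, 0.000351 with no filter, 0.0859 without number 2, 0.00208 with only the 2 groups compared, 0.0739 without number 1 and 0.0913 without every library numbered 1. The 7 in left against naive were -0.0789, -0.0598 and -0.0409 for P2ry12 without number 2, 3 and 4 and -0.00176 with only the 2 groups and the replicate block, 0.0170 for Tmem119 and -0.0231 for Aif1 without number 2, and 0.0327 for Siglech without number 3. The 4 in right against left were -0.00949 for Aif1 with limma voom, -0.0663 and -0.0486 for Aif1 without number 3 and 4, and -0.00189 for Trem2 without number 4. The settings without number 1, 3 or 4, without every library numbered 1, and the block within 2 groups were chosen after seeing the data. The cause was not tested.

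Leaving out each library in turn gave, for right against naive, -0.000344 to 0.168 for Cx3cr1, -0.00255 to 0.210 for Csf1r, -0.0706 to 0.212 for Aif1, -0.100 to 0.0859 for Trem2 and -0.0166 to 0.180 for Tyrobp. For left against naive it gave -0.167 to 0.210 for P2ry12, -0.149 to 0.0243 for Tmem119, -0.0995 to 0.153 for Aif1 and -0.0939 to 0.0333 for Siglech, and for right against left -0.0723 to 0.186 for Aif1. For the summed counts, leaving out a number or naive library gave -0.0119 to 0.13 for Tmem119, -0.0267 to 0.0741 for Csf1r, -0.0857 to 0.167 for Aif1 and -0.0915 to 0.0622 for Tyrobp.

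Counts of all called genes, 0 in each comparison with edgeR, were 3 (right against naive), 9 (left against naive), 0 (right against left) and 31 (summed) with DESeq2 and 0 in all with voom. Leaving out each library gave 0 to 2, 0 to 2, 0 to 159 and 0 to 6, the 159 without right library 2. Without number 2 they were 1, 4 and 286, without number 4 they were 3, 3 and 0, without every library numbered 1 they were 0, 1 and 1, with only the 2 groups 1, 7 and 0, and with those and the replicate block 2, 6 and 0. No filter gave 5 in the summed fit. Leaving out each number in turn moved the mean right minus left of Aif1 between -0.09 and 0.19 and of Trem2 between -0.02 and 0.24.

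Same-numbered left and right libraries did not deviate together (r from -0.14 to 0.06 over 4 pairs, with 1 of 4 left libraries nearest to its own number). Deviations from means of 4 libraries cannot decide whether both came from 1 mouse. The main fits did not take the numbers as pairs. The summed counts and the exact permutation p of right minus left did use them as pairs. The fit with the replicate number as a block called 1, 1, 0 and 1 genes, with no member among them. Aif1, Siglech and Tyrobp, the members of lowest counts, are the most limited by depth.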
